A study of Mus musculus with 59 samples.

Results

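Neuronal RNA from sandwich co-cultures was compared between day 7 and day 3 of culture. The comparison used 13 of the 59 mouse libraries of the series, 7 from day 7 and 6 from day 3, chosen by the labelled cell and day and by no measured value. In these cultures neurons and glia were grown as partners, the RNA of 1 partner was sequenced, and either partner was wild type or carried mutant human SOD1 (G93A), a transgene used to model amyotrophic lateral sclerosis (ALS). The rest of the series held 7 neuronal libraries of day 14, 23 glial libraries and 16 spinal cord libraries.

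Mutant neurons with mutant glia and wild-type neurons with mutant glia each gave 2 libraries a day. Mutant neurons with wild-type glia gave 1 library a day, numbered 1 at day 3 and 2 at day 7. The pairing in which neither partner was mutant gave 1 library at day 3, numbered 1, and 2 at day 7. The labels name no treatment, and the age, strain and origin of the cells, the promoter of the transgene and whether numbered libraries are separate cultures are not given in the sources used here. The p-values thus measure the spread between libraries, which may be technical.

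Young neurons extend axons before they make mature synapses. During growth they hold large amounts of particular tubulins, of doublecortin and of collapsin response mediator proteins, and as they mature they build heavy neurofilament, vesicle fusion proteins, ion channels and inhibitory receptors. Spinal motor neurons are specified by homeodomain factors such as Mnx1, Isl1 and Lhx3, and release acetylcholine made by the enzyme Chat. Mixed cultures can also carry microglia, astrocytes and fibroblast-like cells, whose genes then appear in a neuronal library.

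Levels are given as rescaled RPKM, which is reads normalised for gene length and library depth, divided by 1 factor per library so that the typical gene has the same level in each. Changes are day 7 minus day 3 on the scale of log2(rescaled RPKM + 1), with the pairing of genotypes as a covariate, and are followed by their standard error (SE). Adjusted p is from limma with Benjamini-Hochberg adjustment over 14454 genes tested, and a gene was called at an adjusted p under 0.05. Folds are on this scale and understate the change of low genes.

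The libraries carried neuronal RNA as labelled. Summed over 20 pan-neuronal genes, levels were 6150 to 10700 at day 3 and 3980 to 7230 at day 7, against 318 to 628 in the glial libraries of the same days. The motor neuron and cholinergic list of 21 genes summed to 1360 to 2120 at day 3 and 771 to 1530 at day 7, against 38.9 to 131 in glia. Genes of other cells were present at both days. The 14 microglial markers summed to 193 to 693 at day 3 and 608 to 3860 at day 7, and glial libraries held 2270 to 5080. Fibroblast and pericyte markers, 12 genes of which Lum and Rgs5 stayed below 1 in every neuronal library, summed to 65.2 to 1010 at day 3 and 387 to 2610 at day 7. Astrocyte markers, 14 genes of which Gjb6 stayed below 1, summed to 117 to 322 at day 3 and 177 to 525 at day 7, against 2260 to 3010 in glia. The sums for muscle (at most 31.4) and endothelial markers (at most 9.99) were low at both days.

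**Figure D1:**
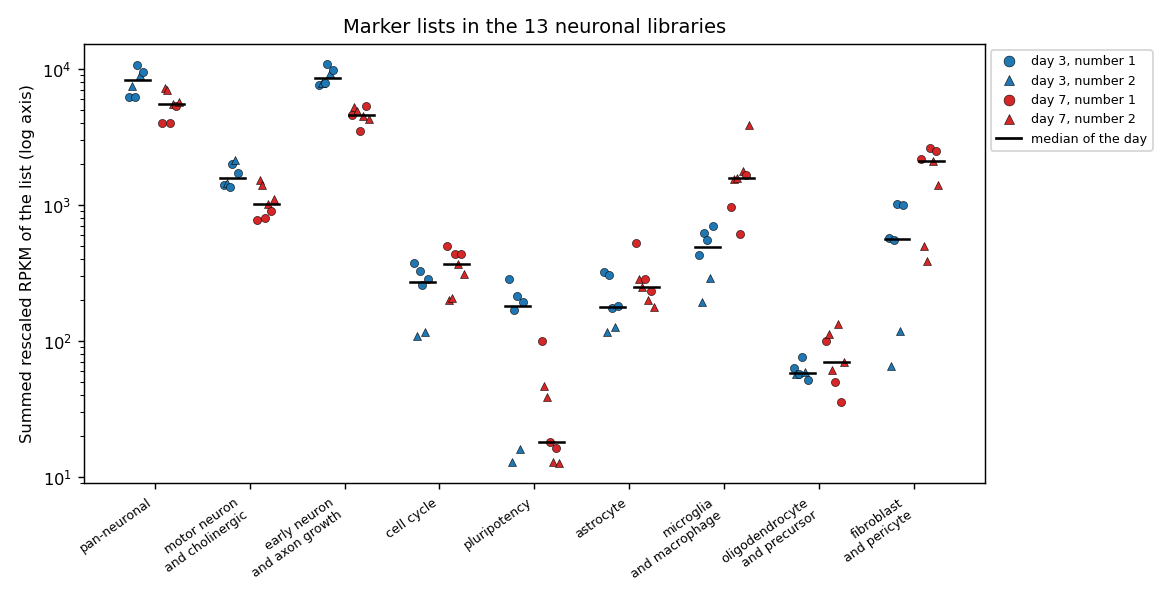
Summed rescaled RPKM (log axis) of 9 marker lists in each of the 13 neuronal libraries, with day 3 in blue, day 7 in red, circles for number 1, triangles for number 2 and a line at the median of each day. Microglial sums rise from a median of 489 to 1560, early neuron sums fall from 8580 to 4590, and the day 3 libraries of number 1 stand apart in the pluripotency list.

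The 4 day 3 libraries numbered 1 stood apart from the 2 numbered 2. They held 7.49 to 9.58 M reads on genes against 22.6 to 29.3 M, had scaling factors of 1.4 to 1.62 against 0.781 to 0.799, and summed to 169 to 285 over 19 pluripotency genes against 12.8 to 16.2. Their fibroblast and pericyte sums were 555 to 1010 against 65.2 to 119. Day 7 libraries held 14.2 to 18.6 M reads with factors of 0.814 to 0.874. The labels name a standard and a Nextera library kit without saying which library had which. Whether kit went with number or with day is thus not known, and its part in the change with day was not tested. Many list counts and calls below are also given without these 4 libraries, a fit of 7 libraries with 2. In that fit only the pairings with mutant glia hold both days, so they alone set the change with day.

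Of the 14454 genes, 2581 were higher at day 7 (17.9%) and 2258 were lower (15.6%), together 33.5%, and the median change of all genes was -0.02. Changes of at least 2-fold were more often rises, with 903 genes up and 208 down. The lowest day 7 library exceeded the highest day 3 library for 1192 genes (8.25%), and the reverse held for 972 genes (6.72%). All 4 pairings moved the same way for 2377 of the higher and 2133 of the lower genes. Without the day 3 libraries of number 1, 4663 of the 4671 called genes that could be tested kept their direction, and 2306 were still called. The calls came from the same libraries, so shared direction across pairings or in this fit is no independent check. Among the libraries numbered 1 alone, 5089 of 14398 genes were called (35.3%), 2740 higher (19%) and 2349 lower (16.3%). Among those numbered 2 alone, 1775 of 13406 were higher (13.2%) and 771 lower (5.75%). Of the genes called with all 13 libraries, 1629 were also called in the same direction in both of these subsets. With day 7 set against the day 3 libraries of number 2, 1842 of 13811 genes were higher (13.3%) and 1347 were lower (9.75%). List counts from all libraries with this scaling are read beside 17.9% and 15.6%. Those without number 1 at day 3 are read beside 13.3% and 9.75%, and those of number 1 libraries alone beside 19% and 16.3%.

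The balance of rises and falls depended on the reference used for scaling. Genes at least 8 times higher in neuronal than in glial libraries, 830 in all, held 92 that were higher (11.1%) and 298 that were lower (35.9%), with a median change of -0.36. Of 357 genes at least 8 times higher in glia, 197 were higher (55.2%) and 5 were lower, with a median of 0.66. In bulk RNA, fewer cells of a type and less RNA per cell cannot be told apart. When the libraries were scaled to the 830 neuron-enriched genes instead, a setting chosen after seeing the data, 4769 genes of 14567 were higher (32.7%), 515 were lower (3.54%), together 36.3%, and the median was 0.31. Higher genes thus made up 53.3% of calls under the first scaling and 90.3% under the second. Under the second scaling a fall is a fall relative to other neuron-enriched genes. List counts under it are read beside 32.7% higher and 3.54% lower. With the values as deposited, with no rescaling, 746 genes were higher and 5925 lower (11.2% of calls higher, median -0.46).

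The mouse gene Sod1 had levels of 171 to 543 (median 448) at day 3 and 157 to 337 (median 175) at day 7. The change was -0.82 (SE 0.33, adjusted p = 0.0725) and did not pass the threshold, although it did in 3 of 13 fits that left out 1 library (lowest adjusted p = 0.0164). Its day 3 level went with the library number, being 410 to 543 in number 1 and 171 to 191 in number 2. Without number 1 at day 3 the change was 0.23 (adjusted p = 0.555). The mouse gene does not check the genotype labels, since the transgene is human.

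Most genes listed for the growing neuron were lower at day 7. Of 20 genes listed for early neurons and axon growth, 15 were lower and none was higher, with a median change of -0.84. Without the day 3 libraries of number 1 the count was 14 of 20, and with scaling to neuron-enriched genes 8. The list summed to 7590 to 10800 at day 3 and 3490 to 5320 at day 7, with no overlap.

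Nnat (neuronatin), a small membrane protein of developing neurons, had levels of 1061 to 1937 (median 1266) at day 3 and 463 to 818 (median 482) at day 7. Every day 7 library lay below every day 3 library, a change of -1.39 (SE 0.18, adjusted p = 0.000322). Dcx (doublecortin), which binds microtubules in migrating and extending neurons, went from 45.2 to 121 (median 67.3) down to 18.3 to 46.3 (median 32.6). These ranges touched, since the highest day 7 library was just above the lowest of day 3, and the change was -1.18 (SE 0.26, adjusted p = 0.00616). Sox11, a transcription factor of newborn neurons, lay at 133 to 289 (median 151) and then at 64.2 to 127 (median 87.4). The day 7 levels were all lower, with a change of -0.97 (SE 0.23, adjusted p = 0.0087). All 3 genes were also lower without the day 3 libraries of number 1, at -1.31, -1.89 and -1.69, and with scaling to neuron-enriched genes, at -1.01, -0.81 and -0.59.

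Tubulin genes of growing axons fell with them. Tubb2b, a beta-tubulin, was at 581 to 1259 (median 1082) at day 3 and at 214 to 487 (median 405) at day 7. Tuba1a, the alpha-tubulin most used by young neurons, was at 585 to 900 (median 691) and then at 240 to 474 (median 347). Tubb3, the beta-tubulin used as a general neuronal marker, was at 848 to 1278 (median 997) and then at 300 to 762 (median 536). None of the 3 overlapped between days, and the changes were -1.37 (SE 0.23), -1.06 (SE 0.18) and -1.08 (SE 0.25), with adjusted p of 0.00148, 0.00143 and 0.00675. Against number 2 of day 3 alone, Tubb2b and Tubb3 kept their direction (-0.89 and -1.16) but not their call (adjusted p = 0.095 and 0.0887). Crmp1 and Dpysl5, collapsin response mediators that steer growth cones, changed by -0.94 (SE 0.20, adjusted p = 0.00487) and -0.89 (SE 0.15, adjusted p = 0.00121), again with no overlap between days.

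General neuronal genes split. Of 20 pan-neuronal genes 9 were lower and 4 were higher (median -0.38). With scaling to neuron-enriched genes 5 were lower and 4 were higher, where 3.54% of all genes were lower and 32.7% higher. Set against the day 3 libraries of number 2 alone, 7 were lower and 1 was higher. Rbfox3 (NeuN), a splicing regulator of postmitotic neurons, was at 13.6 to 24.1 (median 17.6) at day 3 and at 4.74 to 8.65 (median 7.24) at day 7, a change of -1.31 (SE 0.15, adjusted p = 0.000165) with no overlap. Elavl3, an RNA-binding protein of neurons, changed by -0.95 (SE 0.14, adjusted p = 0.000814). Map2 and Syt1, a dendritic microtubule protein and the calcium sensor of synaptic vesicles, did not pass the threshold, at -0.27 (adjusted p = 0.353) and -0.14 (adjusted p = 0.59).

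Against that background RNA of some genes for proteins of the mature axon and synapse rose. Nefh, the heavy neurofilament that fills large axons, was at 18.5 to 32.3 (median 21.4) at day 3 and at 44.8 to 106 (median 56.7) at day 7. The day 7 libraries were all higher, a 2.67-fold rise (change 1.42, SE 0.23, adjusted p = 0.00112). Nefm, the medium neurofilament, moved the other way, from a median of 1374 (range 575 to 4856) to 848 (477 to 1863). Its change was -1.04 (SE 0.27, adjusted p = 0.0132), the days overlapped, and the call was lost without the day 3 library of the wild-type pairing (adjusted p = 0.0526). Among other settings, the Nefm call was also lost without number 1 at day 3 and with scaling to neuron-enriched genes. Snap25, a fusion protein of the presynaptic membrane, was at 59.1 to 111 (median 95.2) and then at 112 to 178 (median 161). The days did not overlap and the change was 0.80 (SE 0.16, adjusted p = 0.00359). Glial libraries of day 7 held a median of 0.361 for Nefh and 1.12 for Snap25. Without number 1 at day 3 both kept their direction (0.96 and 0.63) and lost their call (adjusted p = 0.0603 and 0.074).

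**Figure D2:**
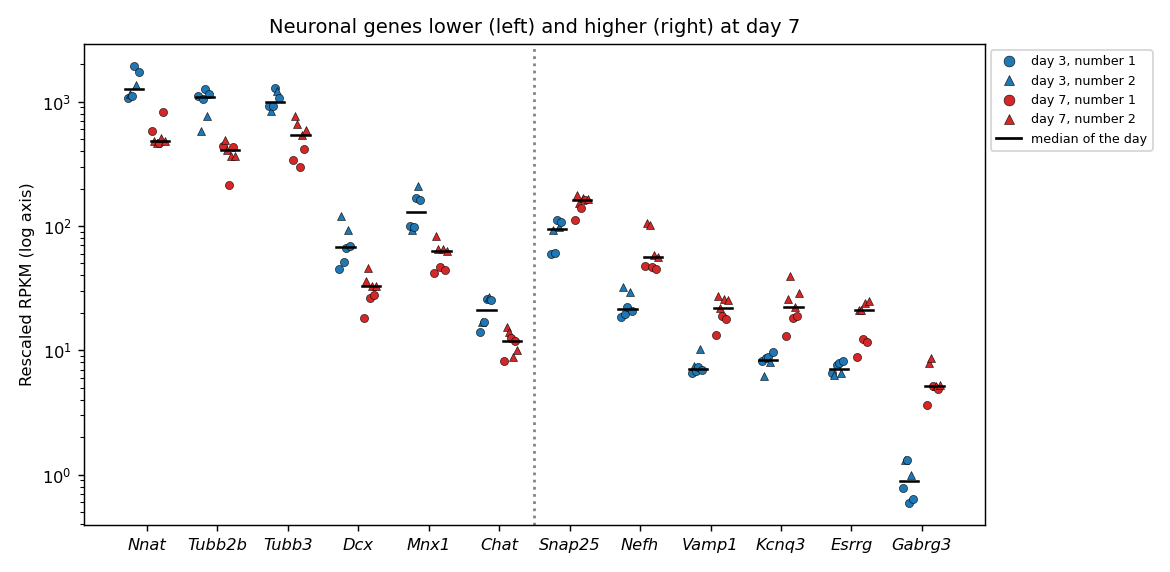
Rescaled RPKM (log axis) of 12 neuronal genes in each of the 13 libraries, with day 3 in blue, day 7 in red, circles for number 1, triangles for number 2 and a line at the median. Nnat, Tubb2b, Tubb3, Dcx, Mnx1 and Chat have lower medians at day 7, and Snap25, Nefh, Vamp1, Kcnq3, Esrrg and Gabrg3 have higher ones.

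Motor neuron genes were lower more often than higher at day 7. Of 21 genes listed, 7 were lower, 2 were higher and 12 did not pass (median -0.28). Scaled to neuron-enriched genes, 7 were lower and 6 higher, where 3.54% of all genes were lower and 32.7% higher. Without number 1 at day 3, 4 of 18 were lower and 1 was higher. Among the transcription factors, Mnx1, which keeps motor neuron identity, was at 92.1 to 208 (median 131) at day 3 and at 41.8 to 83.3 (median 63) at day 7. All day 7 libraries were lower (change -1.20, SE 0.23, adjusted p = 0.00258), and the glial median was 0.249. Lhx4, a partner of Lhx3 in specification, was at 1.81 to 6.39 (median 3.74) and then at 0.582 to 1.00 (median 0.944), a change of -1.29 (SE 0.17, adjusted p = 0.000358) with no overlap. Lhx3 and Lhx1 were lower too, with changes of -0.86 (SE 0.18, adjusted p = 0.00393) and -1.51 (SE 0.21, adjusted p = 0.000465), both with overlap between days. Isl1, at -0.77 (SE 0.30), did not pass (adjusted p = 0.0684), although it was called without number 1 at day 3 (-1.46, adjusted p = 0.0235).

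The cholinergic genes did not move as 1 group. Chat, which makes acetylcholine, was at 14.1 to 26.7 (median 21.1) at day 3 and at 8.12 to 15.5 (median 11.8) at day 7. The ranges overlapped and the change was -0.81 (SE 0.19, adjusted p = 0.00767). Slc18a3, which loads acetylcholine into vesicles, and Slc5a7, which takes up choline, did not pass, at -0.39 (adjusted p = 0.229) and -0.04 (adjusted p = 0.919). Calca, the precursor of calcitonin gene-related peptide, went from 31.6 to 72.7 (median 52.1) to 7.16 to 28.3 (median 19.4), with no overlap and a change of -1.46 (SE 0.16, adjusted p = 0.000149). Prph, the peripherin filament of neurons with peripheral axons, changed by -0.86 (SE 0.22, adjusted p = 0.012). The smaller comparison lost the calls of Mnx1, Lhx3, Chat and Prph at adjusted p of 0.0518, 0.234, 0.0613 and 0.0812, and their changes stayed negative.

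The 2 motor neuron genes that rose were Esrrg and Mmp9. Esrrg, a nuclear receptor of slow (gamma and small) motor neurons, was at 6.38 to 8.21 (median 7.08) at day 3 and at 8.86 to 24.9 (median 21.1) at day 7. The days did not overlap, the glial median at day 7 was 0.362, and the change was 1.10 (SE 0.23, adjusted p = 0.00448; without number 1 at day 3 it was 1.13, adjusted p = 0.0926). Mmp9, a protease of fast motor neurons that microglia and other cells also make, was at 1.04 to 5.38 (median 4.55) and then at 5.28 to 49.0 (median 9.44). Its change was 1.62 (SE 0.35, adjusted p = 0.00534), and its highest day 7 level, 49.0, was in the library with the highest microglial sum, 3860. The part of microglial RNA in the Mmp9 level was not tested.

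Genes of other spinal neuron classes were few. Of 18 genes listed 7 were tested, with 5 lower and 1 higher (median -0.46), and 4 of 6 lower and none higher without number 1 at day 3. En1, the homeodomain factor of V1 interneurons, was at 2.47 to 8.92 (median 5.55) at day 3 and at 1.27 to 2.34 (median 2.00) at day 7, with no overlap (change -1.05, SE 0.17, adjusted p = 0.00112). Slc32a1, the vesicular transporter for GABA and glycine, went from a median of 11.3 (2.34 to 20.8) to 3.34 (1.4 to 8.81). The ranges overlapped, and the change of -0.89 (SE 0.24, adjusted p = 0.0151) was lost with scaling to neuron-enriched genes (adjusted p = 0.054). Neurod1, a proneural factor from the progenitor list, changed by -1.16 (SE 0.16, adjusted p = 0.00041) with no overlap between days.

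Of the 12 largest falls by the rule for naming genes, that of Mab21l2 came first. This gene of the developing neural tube and eye was at 8.12 to 39.2 (median 19.3) at day 3 and at 0.714 to 3.74 (median 1.65) at day 7, a change of -2.65 (SE 0.17, adjusted p = 1.99e-05). Islr2, a membrane protein needed by growing motor and sensory axons, went from 12.3 to 33.3 (median 25.5) to 2.89 to 4.59 (median 3.95), a change of -2.33 (SE 0.20). Pax2, a factor of inhibitory interneurons in the cord, went from 4.16 to 19.9 (median 11.5) to 0.458 to 3.25 (median 0.78), a change of -2.20 (SE 0.17). Each day 7 library lay below each day 3 library for all 3 genes. The other 9 were of Vstm2l (-2.21), Lamp5 (-2.15), Igsf21 (-2.15), Uts2b (-2.0), Hoxc6 (-1.95), the cadherin Cdh8 (-1.95), the neurexin ligand Nxph4 (-1.93) and the neuropeptides Sst (somatostatin, -1.87) and Pyy (-1.86). Staying lower without number 1 at day 3 was a condition of the rule and is no result. In that fit Uts2b, Hoxc6 and Sst were not called (adjusted p = 0.0832, 0.221 and 0.106).

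Most presynaptic, postsynaptic and guidance genes did not pass the test. Their counts are set against the 15.6% of all genes that were lower and the 17.9% that were higher. Of 24 presynaptic genes 6 were lower and 3 higher (median -0.14), and 6 and 1 without number 1 at day 3. Vamp1, a vesicle fusion protein used at motor terminals, was at 6.62 to 10.2 (median 7.10) at day 3 and at 13.3 to 27.4 (median 21.8) at day 7, with no overlap (change 1.38, SE 0.17, adjusted p = 0.000269). Syn2, which tethers vesicles, had a median of 10.8 (9.68 to 13.7) and then of 28.8 (12.0 to 31.2). The lowest day 7 library overlapped day 3, and the change was 1.03 (SE 0.21, adjusted p = 0.00436; without number 1 at day 3 it was 0.74, adjusted p = 0.168). The active zone proteins Unc13a and Bsn changed by -0.90 (SE 0.12, adjusted p = 0.000339) and -0.65 (SE 0.17, adjusted p = 0.0139). Scaled to neuron-enriched genes, 9 presynaptic genes were higher and 3 lower, where 32.7% of all genes were higher.

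On the postsynaptic side 5 of 19 genes were lower and none was higher (median -0.24), and 2 of 18 were lower without number 1 at day 3. The 5 included Lrrtm2 (-0.69, adjusted p = 0.0131) and the scaffold Shank2 (-0.70, adjusted p = 0.00566). Shank2 was not called without number 1 at day 3 (-0.36, adjusted p = 0.22) or with scaling to neuron-enriched genes (-0.37, adjusted p = 0.159). Of 26 axon guidance genes 6 were lower and none was higher (median -0.27), but 8 were lower and 2 higher without number 1 at day 3, and 12 lower and 3 higher among number 1 libraries alone. Efnb3, Robo2 and Unc5a, an ephrin ligand and receptors for slit and netrin, changed by -1.01 (SE 0.11), -0.99 (SE 0.16) and -0.98 (SE 0.15), each with no overlap between days and adjusted p of 0.000111, 0.00123 and 0.00092. With scaling to neuron-enriched genes the guidance list had 5 members higher and 3 lower, and these 3 genes stayed lower (-0.66, -0.66 and -0.65).

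Inhibitory receptor genes were higher more often than lower with all libraries, but not without number 1 at day 3. Of 19 genes for GABA and glycine receptors and chloride transporters, 6 were higher and 1 was lower (median 0.18), and 11 were higher and none lower when scaled to neuron-enriched genes, where 32.7% of all genes were higher. The comparison without number 1 at day 3 gave 2 higher and 3 lower of 18 (median 0.02). Gabrg3, a gamma subunit of the GABA-A receptor, was at 0.591 to 1.32 (median 0.888) at day 3 and at 3.66 to 8.64 (median 5.20) at day 7. All day 7 libraries were higher, a change of 1.82 (SE 0.15, adjusted p = 4.13e-05), and the glial median was 0.307. Gabrb1, a beta subunit, was at 1.68 to 2.99 (median 2.22) and then at 3.47 to 9.96 (median 5.01), a change of 1.14 (SE 0.19, adjusted p = 0.00148). The days did not overlap, but glia held a median of 22.4. Glra3, an alpha subunit of the glycine receptor with a glial median of 0.115, rose from 5.39 (4.29 to 9.19) to 12.1 (7.68 to 21.3), a change of 0.95 (SE 0.25, adjusted p = 0.0133; 0.68 and adjusted p = 0.181 without number 1 at day 3). The chloride exporter Slc12a5 (KCC2), whose rise marks the maturing response to GABA, did not pass (change 0.35, adjusted p = 0.189), nor did the importer Slc12a2 (-0.02, adjusted p = 0.873). Scaled to neuron-enriched genes, Slc12a5 was higher (0.71, adjusted p = 0.0039).

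Of 14 glutamate receptor genes 2 were lower and none was higher (median -0.09), beside 15.6% and 17.9% of all genes. The share lower was thus near that of all genes. Scaled to neuron-enriched genes, 5 were higher and 1 lower (median 0.24), beside 32.7% and 3.54% of all genes. Gria2, the AMPA receptor subunit that limits calcium entry, went from 17.4 to 36.2 (median 22.1) to 9.42 to 19.9 (median 11.8). The ranges overlapped slightly and the change was -0.79 (SE 0.21, adjusted p = 0.0141).

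Among 24 voltage-gated channels 5 were higher and 6 lower (median -0.03), beside 17.9% and 15.6% of all genes. Scaled to neuron-enriched genes 12 were higher and 3 lower, against 32.7% and 3.54% of all genes, and without number 1 at day 3, 2 were higher and 6 lower. Kcnq3, a subunit of the M-type potassium channel that damps repetitive firing, was at 6.20 to 9.67 (median 8.41) at day 3 and at 13 to 39.3 (median 22.1) at day 7. The days did not overlap, and the change was 1.34 (SE 0.18, adjusted p = 0.000465), with a glial median of 0.332. Cacna1a and Kcna1, pore subunits of a presynaptic calcium channel and of an axonal potassium channel, rose by 0.65 (SE 0.11, adjusted p = 0.00172) and 0.71 (SE 0.14, adjusted p = 0.00381), but were not called without number 1 at day 3 (adjusted p = 0.0774 and 0.0549). The R-type calcium channel Cacna1e and the sodium channel subunit Scn3b fell, with changes of -0.92 (SE 0.20, adjusted p = 0.00545) and -0.86 (SE 0.19, adjusted p = 0.00575).

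At the initial segment and node 3 of 11 genes were higher and 3 lower (median 0.14), and 3 and 4 without number 1 at day 3 (median -0.47). Cntnap1 and Cntn1, partners in the junction between axon and myelinating glia, rose by 0.94 (SE 0.14, adjusted p = 0.000599) and 0.91 (SE 0.15, adjusted p = 0.00143). Nfasc, the anchor of the initial segment, was at 26.4 to 45.0 (median 28.9) and then at 12.6 to 25.2 (median 19.2). It was lower in every day 7 library, a change of -0.67 (SE 0.17, adjusted p = 0.0117). Kcnk1, a leak potassium channel, changed by 1.03 (SE 0.11, adjusted p = 0.000144), with a glial median of 26.9.

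Some neuropeptide genes and genes known from injured axons rose, while the peptide genes Sst, Pyy and Calca fell, as given above. Glia held little RNA of Vip, Scg2 and Sprr1a, but not of Atf3. Of 15 genes on the axon injury list, 6 were higher and 1 was lower (median 0.47), beside 17.9% and 15.6% of all genes. Without number 1 at day 3, 6 were higher and 1 lower, beside 13.3% and 9.75%. Vip and Atf3 from this list and Scg2 from the activity-induced list were chosen for display with their values known. The reason was that cyclic AMP response elements (CRE) have been described in the promoters of Vip and Scg2. Atf3 is itself a factor that binds such sites. The 250 bases before the RefSeq start are given 5′ to 3′ on the strand of the gene (GRCm38.p6), with each TGACG or CGTCA in capitals. They are Vip at chr10:5638968-5639217 (plus strand), Scg2 at chr1:79440027-79440276 (minus strand) and Atf3 at chr1:191183334-191183583 (minus strand).
Vip: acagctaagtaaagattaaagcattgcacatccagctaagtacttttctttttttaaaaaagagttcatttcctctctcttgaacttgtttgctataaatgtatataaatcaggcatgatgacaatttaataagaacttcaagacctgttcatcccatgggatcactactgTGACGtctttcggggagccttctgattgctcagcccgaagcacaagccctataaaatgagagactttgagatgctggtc
Scg2: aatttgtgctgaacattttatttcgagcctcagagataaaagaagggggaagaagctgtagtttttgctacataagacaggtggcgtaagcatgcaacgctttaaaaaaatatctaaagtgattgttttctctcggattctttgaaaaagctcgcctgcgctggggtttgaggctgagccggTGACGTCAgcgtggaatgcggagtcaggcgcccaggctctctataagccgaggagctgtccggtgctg
Atf3: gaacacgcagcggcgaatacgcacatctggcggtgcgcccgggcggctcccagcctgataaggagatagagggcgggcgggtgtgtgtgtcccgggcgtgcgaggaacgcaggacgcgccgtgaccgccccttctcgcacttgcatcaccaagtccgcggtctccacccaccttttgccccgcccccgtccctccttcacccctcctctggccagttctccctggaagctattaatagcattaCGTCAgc

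The core TGACG, read on both strands, was found 79 bases before the start of Vip and 7 bases before that of Atf3, and the full palindrome TGACGTCA, which holds the core on both strands, 68 bases before that of Scg2. Of 32851 RefSeq promoter windows of 250 bases, 17.8% hold the core and 1.55% the palindrome. A match describes the letters and is no evidence of binding. Each gene displayed rose, and no gene that fell, such as Sst, or did not pass, such as Fos, was displayed. The matches thus say nothing of the direction of change.

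Vip, vasoactive intestinal peptide, was at 2.82 to 9.77 (median 5.45) at day 3 and at 23.1 to 107 (median 44.8) at day 7. Every day 7 library was higher, a 7.26-fold rise (change 2.86, SE 0.36, adjusted p = 0.000297), and the glial median was 0.222. Scg2, the secretogranin of dense-core vesicles, was at 78.3 to 103 (median 87.4) and then at 131 to 180 (median 150), with no overlap (change 0.78, SE 0.10, adjusted p = 0.000313; glial median 1.77). Atf3, a stress-induced transcription factor, was at 5.55 to 11.8 (median 7.86) and then at 17.8 to 47.3 (median 30.1), again without overlap (change 1.58, SE 0.26, adjusted p = 0.00112). Glia held a median of 12.8 for Atf3, and without number 1 at day 3 its change of 1.08 was not called (adjusted p = 0.0937).

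Sprr1a, a small proline-rich protein known from regenerating axons, was at 12.0 to 46.4 (median 20.9) at day 3 and at 118 to 253 (median 189) at day 7. The days were well apart, with a change of 2.75 (SE 0.24, adjusted p = 4.55e-05) and a glial median of 2.82. Gal (galanin), a peptide that injured neurons make, rose by 1.08 (SE 0.33, adjusted p = 0.0251), a call lost without the mutant pairing's day 3 library of number 1 (adjusted p = 0.0527). Ngfr, the p75 neurotrophin receptor, which motor neurons hold in development and again after injury, fell instead. It was at 44.6 to 77.0 (median 54.9) and then at 11.9 to 29.9 (median 14.9), a change of -1.57 (SE 0.20, adjusted p = 0.000307) with no overlap. Ankrd34c, an ankyrin-repeat protein with a glial median of 0.0425, was at 0.132 to 1.53 (median 0.645) and then at 4.73 to 15.1 (median 10.1), a change of 2.71 (SE 0.24, adjusted p = 4.48e-05).

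Among 18 activity-induced genes 5 were higher and 2 were lower (median 0.11), beside 17.9% and 15.6% of all genes. Without number 1 at day 3, 4 of 16 were higher and none lower (median 0.45), beside 13.3% and 9.75%. Arc, Nptx2 and Bdnf, products of active neurons that act at synapses, rose by 0.79 (SE 0.14, adjusted p = 0.00212), 0.71 (SE 0.14, adjusted p = 0.00267) and 0.62 (SE 0.15, adjusted p = 0.00939), each without overlap between days. Nptx2 was not called without number 1 at day 3 (0.77, adjusted p = 0.0501). Fos, an immediate early gene, did not pass (-0.08, adjusted p = 0.652).

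Cholesterol synthesis genes were lower or did not pass under the first scaling. Of 17 tested, 9 were lower, 8 did not pass and none was higher (median -0.53), and 5 of 17 were lower and 1 higher without number 1 at day 3. Lss, which closes the sterol rings, was at 36.1 to 50.3 (median 45.6) at day 3 and at 19.2 to 30.2 (median 22.3) at day 7. The days did not overlap, and the change was -0.95 (SE 0.10, adjusted p = 0.000101). Fdft1 and Fdps changed by -0.71 and -0.68 (adjusted p = 0.00094 and 0.000477). Scaled to neuron-enriched genes, 1 of 17 was lower, Fdft1 and Fdps were not called (adjusted p = 0.177 and 0.158), and Lss was at -0.58 (adjusted p = 0.0369).

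Of 17 p53 targets and cell death genes 6 were higher and 2 lower (median 0.38), beside 17.9% and 15.6% of all genes. Without number 1 at day 3, 5 were higher and none lower, beside 13.3% and 9.75%. Ccng1 and Mdm2, direct p53 targets, rose by 1.08 (SE 0.21, adjusted p = 0.00273) and 0.88 (SE 0.14, adjusted p = 0.00109) with no overlap between days, and Fas and Pmaip1 by 1.43 (SE 0.34, adjusted p = 0.00862) and 0.99 (SE 0.25, adjusted p = 0.0116). Glial medians of day 7 were 241, 34.6, 34.9 and 7.08 for these 4 genes, and the part of other cells was not tested. Ccng1 was not called without number 1 at day 3 (1.12, adjusted p = 0.0688). Counts of the other stress and metabolic lists are set beside the 17.9% of all genes that were higher and the 15.6% lower. The integrated stress response had 2 higher and 1 lower of 18, and endoplasmic reticulum chaperones 3 and 0 of 14. Heat shock genes had 4 and 1 of 14, and glycolysis and hypoxia 1 and 1 of 18. Oxidative phosphorylation had 0 and 0 of 16, and ALS genes 1 and 2 of 18. Cryab, a small heat shock protein, and Nupr1, a stress-induced nuclear protein, changed by 2.46 (SE 0.54, adjusted p = 0.00545) and 2.55 (SE 0.61, adjusted p = 0.00864), and glial medians were 298 and 167.

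**Figure D3:**
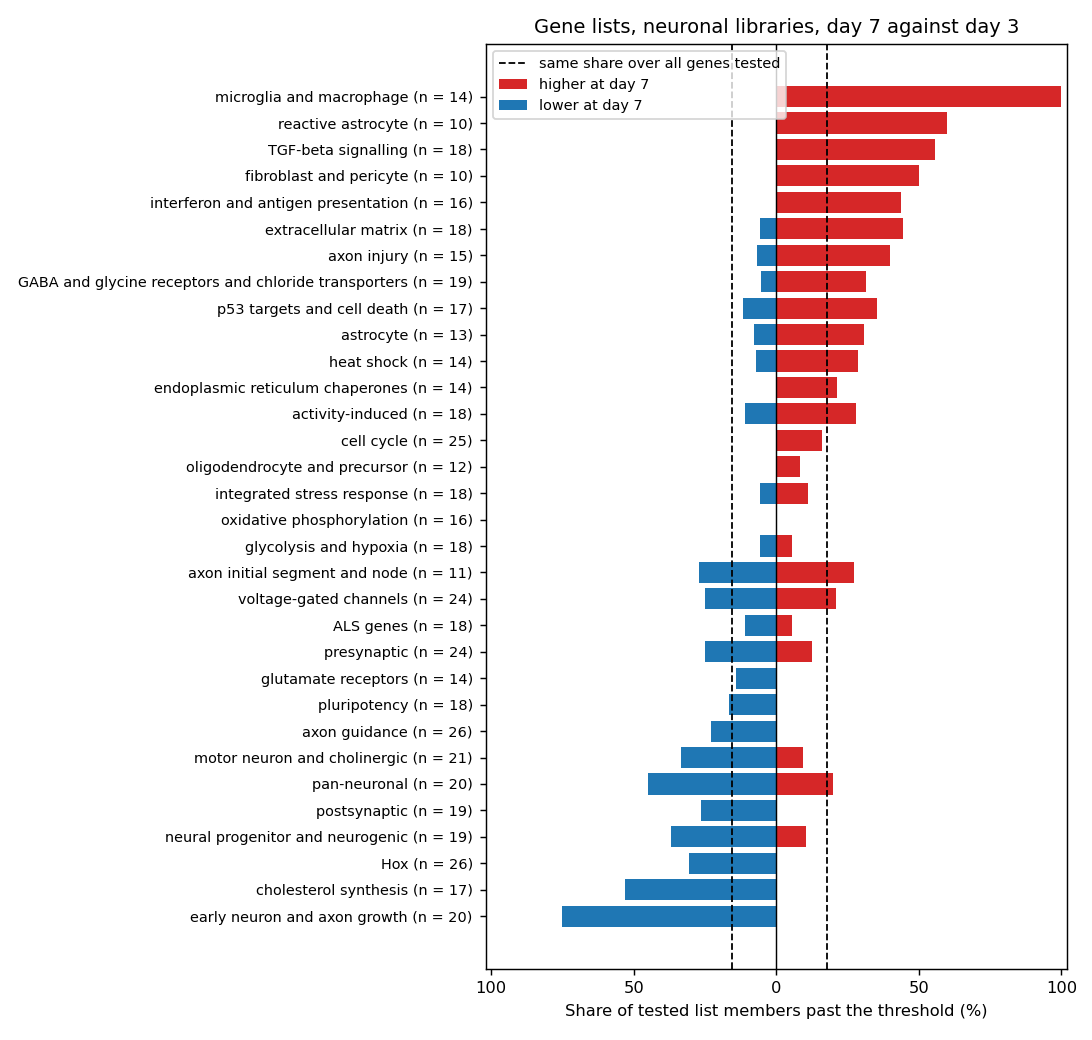
Share of tested members (%) of each gene list with at least 9 tested genes that were higher (red, to the right) or lower (blue, to the left) at day 7, with dashed lines at the shares over all genes tested, 17.9% and 15.6%. Early neuron and axon growth genes have the largest share lower, 15 of 20, and microglial markers the largest share higher, 14 of 14.

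Genes of microglia were higher without exception: 14 of 14 markers were called, with a median change of 1.63. Cx3cr1, the microglial receptor for the neuronal chemokine fractalkine, was at 2.34 to 6.67 (median 3.75) at day 3 and at 11.5 to 49.8 (median 21.4) at day 7. All day 7 libraries were higher (change 2.04, SE 0.21, adjusted p = 8.94e-05), and glia held a median of 85.4. Csf1r, the receptor that microglia need to survive, changed by 1.79 (SE 0.30, adjusted p = 0.00134), and the complement subunit C1qb by 1.97 (SE 0.31, adjusted p = 0.00102). Trem2, a lipid receptor of microglia, was at 7.24 to 21.6 (median 18) and then at 17.6 to 165 (median 67.1), with overlap and a change of 1.61 (SE 0.42, adjusted p = 0.013). Without number 1 at day 3, 9 of the 14 were called, and Csf1r (1.61, adjusted p = 0.0641) and Trem2 (1.95, adjusted p = 0.0946) were not. In glia of the same days 1 of the 14 markers was higher and 1 was lower. Interferon and antigen presentation genes, which microglia also express, were higher for 7 of 16 and lower for none (median 0.53), among them H2-K1 (1.25, adjusted p = 0.00112) and B2m (0.98, adjusted p = 0.0119). The part of microglial RNA in these was not tested.

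The matrix, TGF-beta and fibroblast lists each held a larger share of higher genes than the 17.9% of all genes. Of 18 extracellular matrix genes 8 were higher and 1 lower (median 1.05), of 18 TGF-beta genes 10 were higher and none lower (median 0.68), and of 10 fibroblast and pericyte markers 5 were higher and none lower (median 1.21). Leaving out number 1 at day 3 gave 12 and 1, 10 and 1, and 8 and 0. Fn1 (fibronectin) was at 23.0 to 56.9 (median 46.7) at day 3 and at 70.8 to 360 (median 237) at day 7, a change of 2.04 (SE 0.31, adjusted p = 0.000782). Postn (periostin), a matrix protein of fibroblasts, changed by 2.11 (SE 0.25, adjusted p = 0.000222) and the protease Mmp2 by 2.02 (SE 0.40, adjusted p = 0.00341), and for all 3 genes the days did not overlap. Dcn (decorin) changed by 2.03 (SE 0.38, adjusted p = 0.00239) with overlap between days.

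Cnn1 (calponin) of contractile cells was at 0.441 to 9.02 (median 5.74) at day 3 and at 9.17 to 51.8 (median 44.6) at day 7, a change of 2.58 (SE 0.60, adjusted p = 0.00742). Acta2, smooth muscle actin, was at 9.99 and 21.4 in the day 3 libraries of number 2, at 125 to 267 in those of number 1, and at 115 to 1139 (median 863) at day 7. The days overlapped, since the number 2 libraries of mutant neurons stood at 115 and 157 at day 7. The change of 2.54 (SE 0.79, adjusted p = 0.0298) was not called in 6 of 13 fits that left out 1 library, with adjusted p up to 0.0679: those without either day 3 library of number 2, without the day 3 library of the wild-type pairing, without either day 7 library of wild-type neurons with mutant glia, or without number 1 of the mutant pairing at day 7. Without number 1 at day 3 it was 5.28 (adjusted p = 0.00434).

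Among the TGF-beta genes Tgfbr2, the type II receptor, was at 1.51 to 3.87 (median 2.73) at day 3 and at 10.1 to 38.8 (median 19.8) at day 7. There was no overlap (change 2.48, SE 0.19, adjusted p = 2.77e-05). The ligands Tgfb1, Inhba and Bmp4 changed by 1.56 (SE 0.27, adjusted p = 0.00173), 1.68 (SE 0.26, adjusted p = 0.000847) and 2.72 (SE 0.53, adjusted p = 0.00315). Glial medians at day 7 were 37.9, 24.9, 18 and 8.14 for the 4 genes. The summed fibroblast markers went with these genes across days, and their part in the changes was not tested.

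The 12 largest rises by the rule for naming genes were mostly of genes that glial or matrix cells also express. Ecrg4 rose most (change 3.70, SE 0.48, adjusted p = 0.000336), from 1.24 to 8.60 (median 4.11) at day 3 to 15.2 to 127 (median 73.7) at day 7, and glia held a median of 360. Thy1, a surface protein of mature neurons and of fibroblasts, was at 3.13 to 14.3 (median 8.70) and then at 83.3 to 140 (median 98.1), an 11.9-fold rise with no overlap (change 3.57, SE 0.31, adjusted p = 4.48e-05). Its glial median was 97.3. Thbs2 and Tnc, a thrombospondin and tenascin of the matrix, changed by 3.07 (SE 0.42) and 2.95 (SE 0.52), Ccnd1 (cyclin D1) by 2.95 (SE 0.29) and Anxa3 by 2.92 (SE 0.33), with glial medians of 28.7, 77.2, 796 and 188. Ly6a and Ly6c1, surface proteins of vessels and blood cells, changed by 3.18 (SE 0.47) and 3.04 (SE 0.35), although glia held only 8.30 and 0.625. Vip, Sprr1a, Bmp4 and Ankrd34c, given above, completed the 12.

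Of 13 astrocyte markers tested 4 were higher and 1 lower (median 0.67). Without number 1 at day 3, 7 were higher and none lower (median 1.53), and among number 1 libraries alone 8 were higher and 1 lower. Gfap, the astrocyte intermediate filament, was at 1.95 to 14.1 (median 3.95) and then at 2.14 to 22.2 (median 5.65), and did not pass (change 0.32, adjusted p = 0.58). Aqp4, the astrocyte water channel, changed by 1.35 (SE 0.32, adjusted p = 0.00823), from a median of 0.841 to 3.66 against 129 in glia, and Mlc1 by 1.56 (SE 0.37, adjusted p = 0.00788). Aqp4 was not called without number 1 at day 3 (1.69, adjusted p = 0.0582). Of 10 reactive astrocyte genes 6 were higher and none was lower (median 0.78). Cd44, a hyaluronan receptor of many cell types, was at 11.4 to 19.9 (median 13.3) at day 3 and at 55.4 to 97.8 (median 66.7) at day 7, well apart (change 2.24, SE 0.12, adjusted p = 9.46e-06). Cp (ceruloplasmin) and Vim (vimentin) changed by 2.51 (SE 0.29, adjusted p = 0.000164) and 1.19 (SE 0.29, adjusted p = 0.00879). The myelin gene Mbp did not pass, at 0.19 (adjusted p = 0.73), and 1 of 12 oligodendrocyte genes was higher.

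Some lists followed the day 3 library number as much as the day. Of 18 pluripotency genes 3 were lower and none was higher, with a median of -1.21, but without number 1 at day 3 the median was 0.81, with 2 of 13 higher. Pou5f1 (Oct4) was at 9.80 to 19.1 in the day 3 libraries of number 1 and at 0.383 and 0.652 in those of number 2, and at 0 to 5.76 (median 0.233) at day 7. The change of -1.64 (SE 0.69) did not pass (adjusted p = 0.0863), nor did that of Nanog (-1.43, adjusted p = 0.125). At day 7 the 3 highest levels of Pou5f1 (5.76, 4.28 and 1.41) were in the 3 libraries of mutant neurons. Tdgf1 and Esrrb were lower, at -1.85 (SE 0.48, adjusted p = 0.0133) and -1.34 (SE 0.29, adjusted p = 0.00576), but not without number 1 at day 3 (adjusted p = 0.601 and 0.3), and Tdgf1 not without the wild-type pairing's day 3 library (adjusted p = 0.056).

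Cell cycle genes were higher for 4 of 25, near the 17.9% of all genes, and lower for none (median 0.59). Without number 1 at day 3, 19 of 25 were higher (median 1.49), beside 13.3% of all genes. Mki67, which marks dividing cells, was at 4.41 to 9.96 (median 8.17) at day 3 and at 9.04 to 30.9 (median 21.4) at day 7, a change of 1.17 (SE 0.30, adjusted p = 0.0116). Top2a did not pass (0.95, adjusted p = 0.0671; without number 1 at day 3 it was 2.08, adjusted p = 0.00769). In glia 9 of 24 cell cycle genes were lower and 1 was higher. Progenitor genes were lower for 7 of 19 and higher for 2 (median -0.36), with a median of 0.60 without number 1 at day 3. Hox genes, which set position along the cord, were lower for 8 of 26 and higher for none (median -0.70), and for 6 of 21 without number 1 at day 3 (median -0.51). Hoxc5 was at 25.8 to 53.8 (median 51) at day 3 and at 11.7 to 32.5 (median 19.1) at day 7, a change of -1.19 (SE 0.27, adjusted p = 0.00639) that was lost with scaling to neuron-enriched genes (-0.82, adjusted p = 0.0754).

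**Figure D4:**
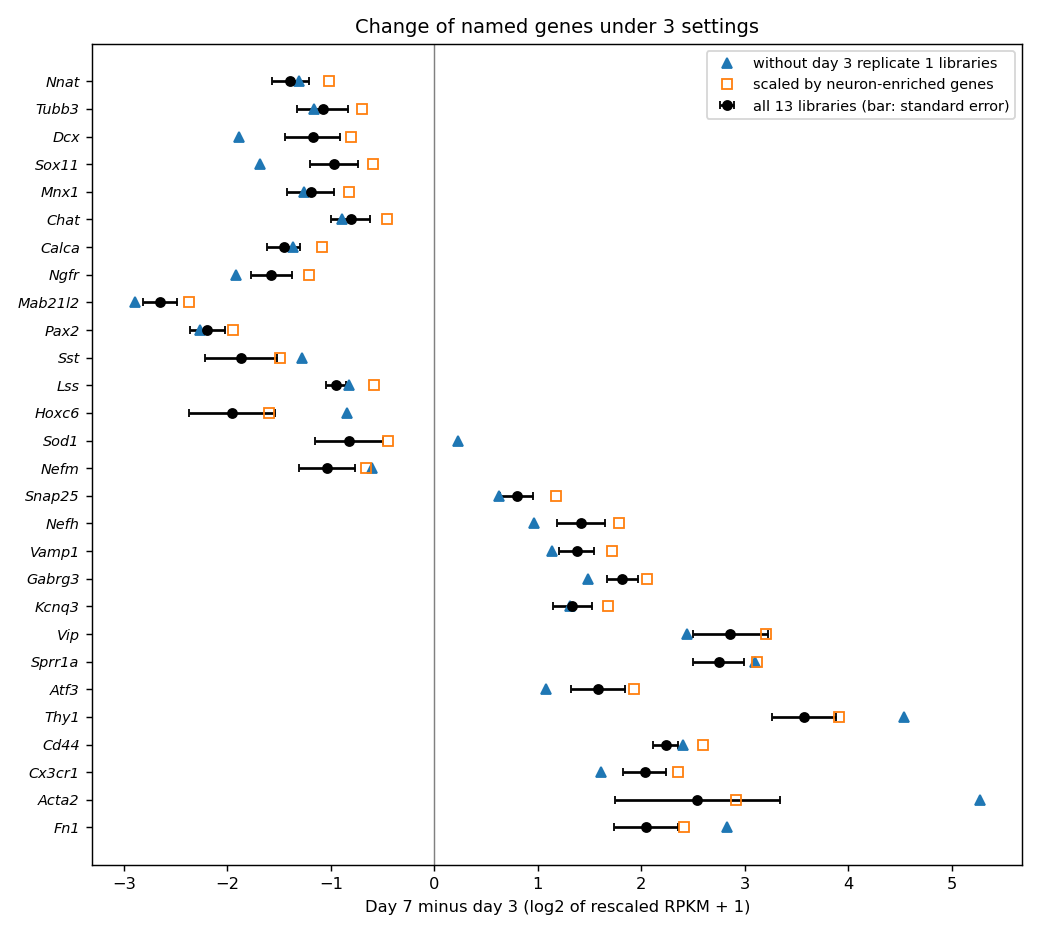
Change from day 3 to day 7 (log2 of rescaled RPKM + 1) of 28 named genes with all 13 libraries (black, bar for the standard error), without the day 3 replicate 1 libraries (blue triangles) and with scaling to neuron-enriched genes (orange squares). Sod1 is the gene that changes sign, from -0.82 to 0.23 without those libraries, and scaling to neuron-enriched genes moves each gene to the right.

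No gene's change with day was called as different between mutant and wild-type neurons or between mutant and wild-type glial partners. By limma, 509 of 14454 genes (3.52%) had an unadjusted p under 0.05 for the neuronal genotype, with a lowest adjusted p of 0.28, and 187 (1.29%) for the glial genotype, with a lowest adjusted p of 0.103. Voom on recovered reads also called 0 for either, with 409 and 228 genes at an unadjusted p under 0.05. For the neuronal genotype 5 genes were called without the day 7 library of number 1 from the mutant pairing, and 3 without the day 3 library of number 2 from wild-type neurons with mutant glia. Both day 3 libraries with wild-type glia were of number 1, while those with mutant glia had both numbers. With the number as a block, 0 genes were called for the glial genotype too.

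Mnx1 and Chat had an unadjusted p under 0.05 for the neuronal genotype, but neither held after adjustment. Mnx1 changed by -0.69 and -0.56 in mutant neurons with mutant and wild-type glia, and by -1.75 and -1.59 in wild-type neurons. The difference of 1.04 had an unadjusted p of 0.0132 and an adjusted p of 1, and Chat showed 0.84 (unadjusted p = 0.0179, adjusted p = 1). Snap25 changed by 0.92 and 1.32 in mutant and by 0.55 and 0.59 in wild-type neurons, and Nefh by 1.51 and 2.30 and by 0.99 and 1.25, with unadjusted p of 0.134 and 0.151. Gabrg3 rose by 1.67 to 2.06 in the 4 pairings and Vamp1 by 1.25 to 1.56. A p that misses the threshold does not show that the genotypes act alike.

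Glia of the same cultures took a different course. In 15 glial libraries 1638 of 14177 genes were higher at day 7 (11.6%) and 1783 lower (12.6%). The difference between the change in neurons and in glia was tested in all 28 libraries: of 15433 genes 2652 rose more, or fell less, in neurons (17.2%) and 1869 the reverse (12.1%), so that 58.7% of calls were higher, against 44.1% after quantile normalization. Thbs2 had the largest difference upward (4.66, SE 0.43, adjusted p = 9.87e-08), since its glial levels went from 59.9 to 114 (median 89.9) at day 3 to 23.5 to 35.7 (median 28.7) at day 7 while neuronal levels rose. Sprr1a (4.47), Sema3d (4.10), Reg3g (3.94), Thy1 (3.88) and Tnr (3.72) followed. For Reg3g, an antimicrobial lectin, the difference came from glia, whose median went from 61.3 to 5.57, while the neuronal median was 0 on both days. The largest differences downward were of Pax2 (-3.10), Islr2 (-2.76), Mab21l2 (-2.38), Crabp1 (-2.20), Dynlt1b (-2.07) and Uts2b (-2.07). Nefh and Snap25 differed by 1.30 (SE 0.27, adjusted p = 0.000843) and 0.76 (SE 0.25, adjusted p = 0.0249), with glial medians near or under 1 at both days.

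**Figure D5:**
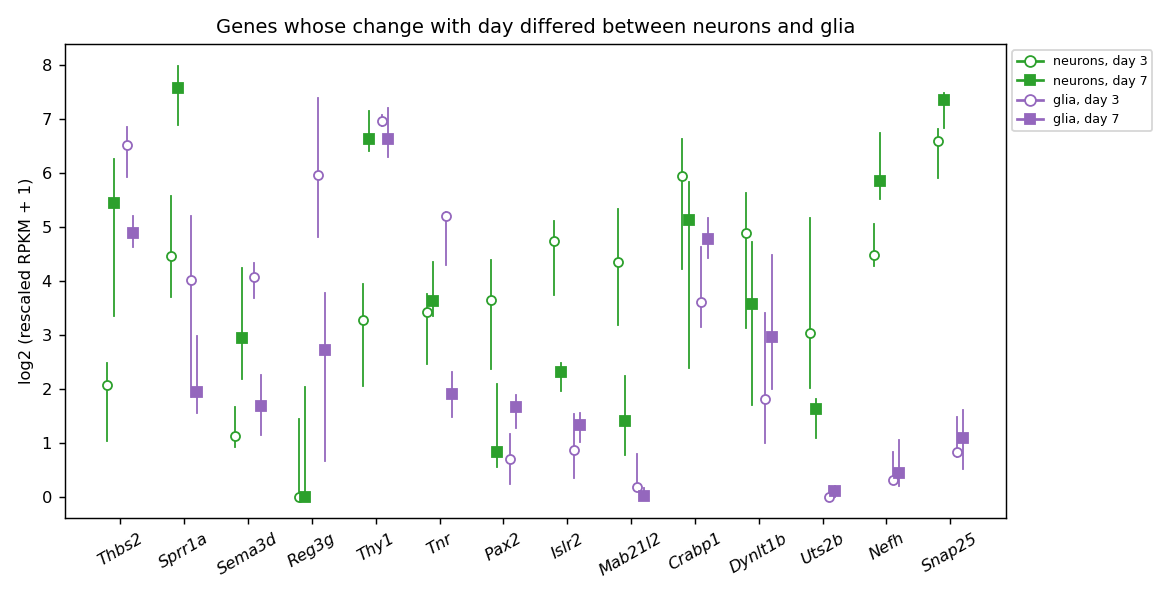
Median level (log2 of rescaled RPKM + 1) of 14 genes in neurons (green) and glia (purple) at day 3 (open circles) and day 7 (filled squares), with lines from the lowest to the highest library. Thbs2, Sprr1a and Sema3d rise in neurons and fall in glia, and Pax2 and Islr2 fall in neurons and rise in glia.

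In the difference of neurons from glia, 13 of the 14 microglial markers, 12 of 18 matrix genes and 12 of the 14 oligodendrocyte genes were higher. The oligodendrocyte genes fell in glia, where 13 of 13 tested were lower (median -1.57). Of the early neuron list 11 of 18 genes were lower in glia as well (glial median -0.71), at summed levels of 1150 to 1520 at day 3 and 748 to 1150 at day 7 against 3490 or more in neurons. By the test of the difference, the change of 4 genes was lower in neurons and that of 1 was higher.

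Day 14 is given as levels only. The pan-neuronal sum was at 1270 to 2260 and the early neuron sum at 1300 to 1930, both below every day 7 library. Snap25 and Nefh had day 14 medians of 42.5 and 42.7, and Vip of 14.4, below their day 7 medians of 161, 56.7 and 44.8. The fibroblast and pericyte sum was at 1790 to 3010 and the astrocyte sum at 966 to 1260, against 387 to 2610 and 177 to 525 at day 7. The part of these cells in the day 14 levels was not tested.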

How the data were processed

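RNA of the neuronal partner was extracted with Trizol and RNeasy, per the labels' protocols, and sequenced. Bowtie and the mm9 build are named in the submitters' processing notes. The deposited table gives RPKM values by the authors (reads normalised for gene length and depth), a unit that the values bear out and that the table itself does not name. In it 100% of the 22784 entries above 0 came out as whole reads (within 0.02 of a read), which gave each library's depth, and replicates differed by 14.8 to 50 times the counting noise.

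Values were divided by median-of-ratios factors, and log2(value + 1) was tested with limma 3.58.1 (R 4.3.3, trended variance, 8 residual degrees of freedom) for genes that reached 1 in 2 libraries or more. Leaving out the day 3 libraries numbered 1 leaves no wild-type glia at day 3, so the fit without them estimates the day from the pairings with mutant glia. The scripts were tested on simulated data. Neuron-enriched genes, the base of the second scaling, had a mean of at least 1 and were 8 times higher than in the glial libraries of days 3 and 7.

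The members and lists were chosen with earlier results of these data known. Named genes were Sod1, the 12 largest rises and falls that kept their direction in all 4 pairings and without the day 3 libraries of number 1, the largest changes of each list with its defining members, and the 6 largest differences between neurons and glia in each direction. Promoter sequences are from RefSeq (GRCm38.p6). The alternatives were no rescaling, quantile normalisation, other pseudocounts and filters, the number as a block, subsets of libraries, voom on recovered reads and leaving out each library.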

Additional observations from a re-analysis of the deposited data

Results flagged for a closer look

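For 8 of 267 sets of 1 gene and 1 day, 1 library lay far from the others. Such a gap arises by chance in about 5% of sets. At day 7 the wild-type pairing's number 1 had the highest Nnat, 818 against 576 in the next library. Wild-type neurons with mutant glia, number 1, had the lowest Tubb2b, 214 against 364. Number 2 of the mutant pairing had the highest Thy1, 140 against 101, and the highest Lhx3, 1.58 against 1.05. Number 1 of the mutant pairing had the lowest Ankrd34c, 4.73 against 9.71.

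At day 3 wild-type neurons with mutant glia, number 2, had the highest Vamp1, 10.2 against 7.41, and the highest Nfasc, 45 against 29.4. Number 1 of the mutant pairing had the highest Kcnk1, 5.2 against 3.71.

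The change with day differed between neurons and glia for 2652 genes upward and 1869 downward. Among named genes the difference (neurons minus glia, log2) was 4.66 for Thbs2, 4.47 for Sprr1a, 4.10 for Sema3d, 3.94 for Reg3g, 3.88 for Thy1, 3.72 for Tnr, 1.30 for Nefh and 0.76 for Snap25. It was -3.10 for Pax2, -2.76 for Islr2, -2.38 for Mab21l2, -2.20 for Crabp1, -2.07 for Dynlt1b and -2.07 for Uts2b. In neurons alone the rise of Tnr was not called without the wild-type pairing's day 3 library (adjusted p = 0.0685), and the fall of Dynlt1b was not called in 8 of 13 fits that left out 1 library (adjusted p up to 0.0804).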

How the results depend on the processing

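Across all settings, leave-one-out fits included, no named gene changed direction past the threshold. Of 135 named genes with a fit, 119 passed the threshold, 113 of them under every fit that left out 1 library, and 55 kept direction and threshold in all settings. Leaving out 1 library gave 1873 to 2581 genes higher, 1579 to 2560 lower, 0 to 5 with a difference by neuronal genotype and 0 to 0 by glial genotype. Genes higher and lower numbered 746 and 5925 as deposited, 4769 and 515 scaled to neuron-enriched genes, and 1522 and 1021 with mutant glial partners only. Genes lower numbered 1414 with 1 mean per pairing and day, 1347 without the day 3 libraries of number 1, and 771 in number 2 libraries only. The difference by glial genotype was called for 3 genes with no filter and 1 without trended variance. The difference between neurons and glia was called higher for 1235 and lower for 626 genes as deposited, and lower for 2936 after quantile normalisation. The cause of these shifts was not tested.

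For 5 pairing and number combinations present at both days, deviations correlated at 0.49, 0.30, -0.11, -0.16 and -0.10, and no label says what a number marks, so the numbers were not taken as pairs. The second principal component (23.7% of the variance) nevertheless separated number 1 (0.94 to 35.5) from number 2 (-33.8 to -14.7) at both days. With the replicate number as a block, 3627 genes were higher and 3435 lower, the 4839 calls were all kept, and 3407 genes were lower in neurons than in glia by the difference. The day 3 libraries of number 1 were the shallowest, and low genes are least precise in them.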
